A study of Mus musculus with 4 samples.

Results

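Irf1, a transcription factor, and 9 interferon-inducible GTPases (Iigp1, Igtp, Irgm1, Irgm2, Ifi47, Tgtp1, Gbp2, Gbp3 and Gbp7) were followed across the cell classes of the aged mouse lung. These 10 genes were taken by symbol from the 31054 features of the count matrices, and each symbol matched 1 feature. The lungs came from male C57BL/6 mice that were 19 months old at the start and received BPTES, a small-molecule inhibitor of the glutaminase GLS1, or its vehicle DMSO for 1 month. Each group had 2 single-cell libraries. Lungs were digested with Liberase, and 20000 CD45- and 9000 CD45+ sorted cells were mixed per library, so CD45+ and CD45- cells do not stand in their tissue proportions. The labels do not say how many mice gave a library, and p-values measure the spread between these libraries.

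Interferon-gamma, the product of Ifng, is made mainly by T and natural killer cells. It acts through the receptor chains Ifngr1 and Ifngr2 and the kinases Jak1 and Jak2, and the signal reaches short DNA elements called GAS and turns on Irf1. Irf1 and related factors bind another element, the ISRE, in front of further genes. The immunity-related GTPases (Iigp1, Igtp, Irgm1, Irgm2, Ifi47, Tgtp1) and the guanylate-binding proteins (Gbp2, Gbp3, Gbp7) act on membranes of vacuoles that hold intracellular pathogens, and Irgm1, Irgm2 and Igtp are the regulatory members that keep the others off the cell's own membranes. Type I interferons signal through another receptor and also act through the ISRE. Ifit1, which binds viral RNA, and Oasl2, a 2'-5' oligoadenylate synthetase-like protein, are commonly read as type I genes and served here as the reference for that arm.

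The genes lie on 3 chromosomes of GRCm38. Gbp7 (ENSMUSG00000040253, chr3:142530342-142550149), Gbp3 (ENSMUSG00000028268, chr3:142560026-142573209) and Gbp2 (ENSMUSG00000028270, chr3:142620602-142638008) neighbour each other on the forward strand. Chromosome 11 holds Irgm1 (ENSMUSG00000046879, chr11:48861968-48871683), Tgtp1 (ENSMUSG00000078922, chr11:48985327-48994172), Ifi47 (ENSMUSG00000078920, chr11:49076587-49096974), Irf1 (ENSMUSG00000018899, chr11:53770014-53778374), Igtp (ENSMUSG00000078853, chr11:58199556-58207591) and Irgm2 (ENSMUSG00000069874, chr11:58199618-58222782). Irgm1 and Tgtp1 are on the reverse strand and the others on the forward strand. Iigp1 (ENSMUSG00000054072) is on chromosome 18. Irgm2 and Igtp overlap on the same strand in GENCODE M21, Tgtp1 overlaps Gm12185 and has the close copy Tgtp2, and Ifi47 overlaps Olfr56, so the split of reads between these neighbours is uncertain.

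Promoter windows of RefSeq (GRCm38.p6, 250 bases before to 50 after a start site) were available for 9 of the 10 genes, all but Iigp1, in 11 windows. Both interferon elements were searched as letters, TTCNNNGAA for GAS, which reads the same on both strands, and GAAA, any 2 bases and GAAA for the ISRE on either strand. A GAS match was in 5 of the 11 windows, against 8.30% of all 32851 windows, and an ISRE match was in 7, against 3.44%. ISRE matches were also common among type I interferon-stimulated genes, in 10 of 18 windows, where 3 had a GAS match. The stretches below carry the matches in capitals, 5′ to 3′ along the gene. They are shown because the GTPases Igtp, Irgm2 and Tgtp1 have the GAS and ISRE matches 2 bases apart in the same order, whereas Irf1 has only a GAS match and Ifit1 only ISRE matches.

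Irf1, chr11:53769904-53769952, forward strand: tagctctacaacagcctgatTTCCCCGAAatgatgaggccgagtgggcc
Igtp, chr11:58199491-58199551, forward strand: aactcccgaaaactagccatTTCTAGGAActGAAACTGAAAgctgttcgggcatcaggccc
Irgm2, chr11:58214882-58214942, forward strand: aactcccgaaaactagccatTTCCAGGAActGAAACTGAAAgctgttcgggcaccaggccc
Tgtp1, chr11:48992294-48992354, reverse strand: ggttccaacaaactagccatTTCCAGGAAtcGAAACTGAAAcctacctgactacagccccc
Gbp7, chr3:142530210-142530312, forward strand: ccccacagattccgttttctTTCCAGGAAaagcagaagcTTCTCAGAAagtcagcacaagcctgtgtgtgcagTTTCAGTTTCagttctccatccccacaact
Ifit1, chr19:34640765-34640833, forward strand: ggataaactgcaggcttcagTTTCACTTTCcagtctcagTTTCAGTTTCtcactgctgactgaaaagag

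The Igtp and Irgm2 stretches were identical at 59 of 61 bases (96.7%), and the Irgm2 and Tgtp1 stretches at 41 of 61 (67.2%). Counted from the start site, the GAS match began at position -45 in Igtp, -75 in Irgm2 and -88 in Tgtp1. Gbp7 had 2 GAS matches and 1 ISRE match. ISRE matches without GAS were found for Gbp2, Gbp3 and Irgm1, where those of Gbp3 and those of Irgm1 overlapped each other, and the Ifi47 window held neither. A match is a run of letters and was not measured as a binding site.

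After filtering, the 4 libraries held 63895 cells, between 14407 and 18860 each, with medians of 13915.5 to 15749 UMIs per cell. Of 63478 distinct barcodes, 417 (0.657%) occurred in more than 1 library. Cells fell into 37 clusters, which were named from fixed markers with the ending "-like". Of the 25 named classes, 19 had at least 50 cells in every library and are described here, and 20.7% of cells stayed unnamed. In a class, counts of all cells of a library were summed and are given as CPM, a level relative to all counts of the class in that library, scaled with TMM library sizes. Free RNA in droplets adds UMIs to every class, so values of a few CPM were not read as expression. In Irf1, 53569 UMIs stood behind the general capillary class and 3562 behind the classical monocyte class.

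All 10 genes had their highest mean level in venous endothelial-like cells, and 9 of them their next highest in general capillary endothelial-like cells. Venous cells were above the next class in 4 of 4 libraries for 8 of the genes, in 3 for Irgm1 and in 2 for Gbp7. Irf1 in venous endothelial-like cells was at 457 and 472 CPM in the BPTES libraries and at 700 and 604 CPM in the DMSO libraries. In general capillary endothelial-like cells Irf1 was at 445 and 376 CPM with BPTES and at 543 and 512 CPM with DMSO. The venous level was above the capillary level in 4 of 4 libraries, while the ranges of the 2 classes overlapped. Arterial endothelial-like cells followed at a mean of 388 CPM, peribronchial fibroblast and myofibroblast-like cells at 351 CPM and aerocyte endothelial-like cells at 321 CPM. Lymphatic endothelial-like (276 CPM), NK-like (268 CPM) and adventitial fibroblast-like cells (254 CPM) came next and did not differ beyond the spread of their libraries. At the low end, B-like cells held 53.1 CPM, classical monocyte-like cells 58.8 CPM and ciliated-like cells 59.4 CPM of Irf1. The highest class was 10.5-fold above the lowest, and 16 of the 18 pairs of neighbours in this order had overlapping ranges.

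**Figure D1:**
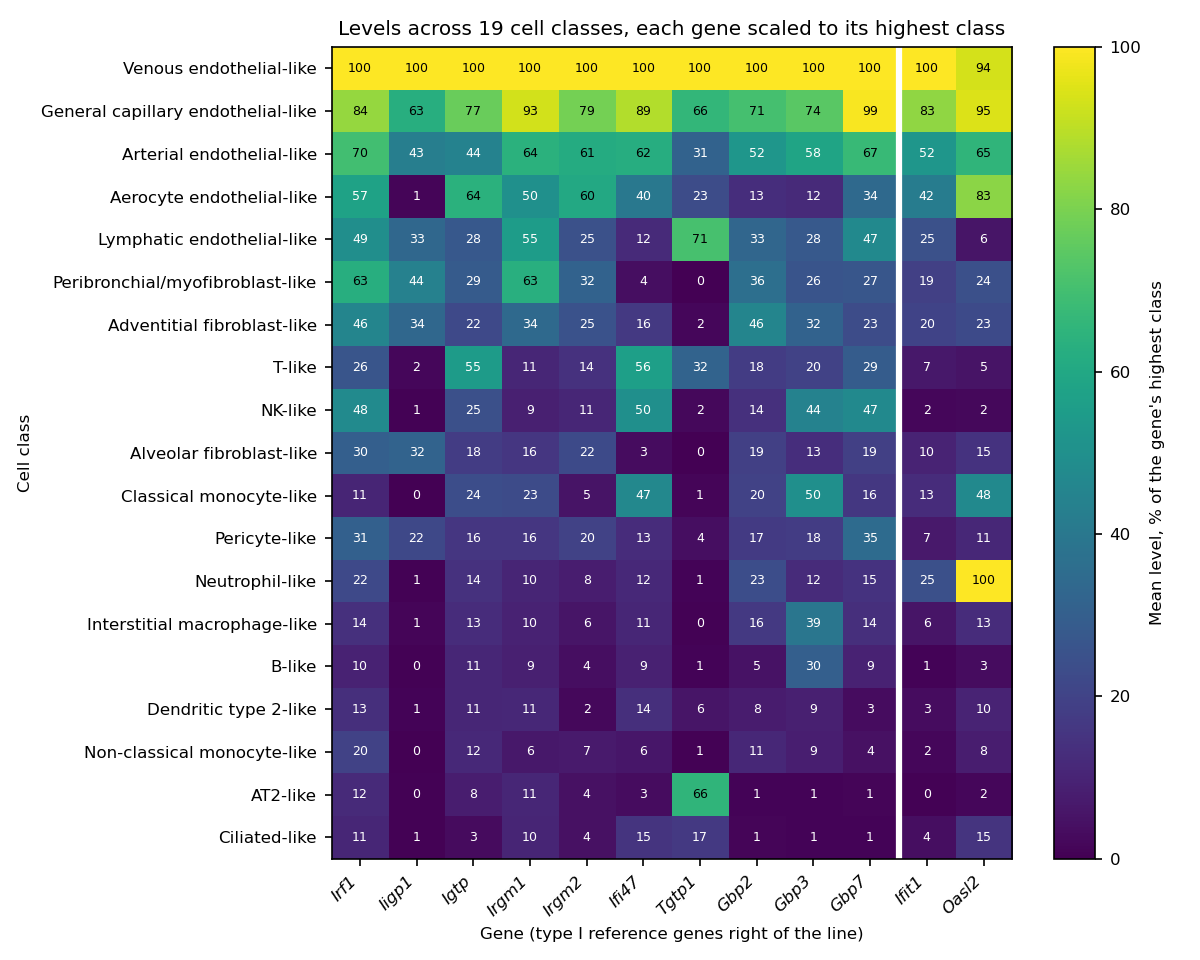
Mean level of each gene over the 4 libraries in 19 cell classes (rows), as percent of the gene's highest class (colour and printed number), with the type I reference genes Ifit1 and Oasl2 right of the line. Venous endothelial-like cells are at 100% for all 10 interferon-gamma genes, while Oasl2 is at 100% in neutrophil-like cells and at 94.7% and 93.5% in general capillary and venous endothelial-like cells, with overlapping ranges.

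Iigp1, an effector GTPase that loads onto pathogen vacuoles, had the widest range of the 9 members with a UMI in every class (Tgtp1 was at 0 in peribronchial fibroblast and myofibroblast-like cells). In venous endothelial-like cells it was at 502 and 396 CPM with BPTES and at 806 and 785 CPM with DMSO, and its mean of 622 CPM was 353-fold above that of classical monocyte-like cells (1.76 CPM), a level not told apart from free RNA. The lowest class means of Gbp7 (1.62 CPM) and Gbp3 (0.813 CPM) were also at such levels, so the fold and its rank are uncertain. Iigp1 was also high in fibroblasts, at 274 CPM in peribronchial fibroblast and myofibroblast-like, 209 CPM in adventitial and 199 CPM in alveolar fibroblast-like cells. Pericyte-like cells held 136 CPM. Below them the order broke off, since the next class, T-like cells, held 11.1 CPM, 1.78% of the highest level. Aerocyte endothelial-like cells, the capillary cells specialised for gas exchange, held Iigp1 at 6.06, 4.70, 10.4 and 13.8 CPM in the BPTES and DMSO libraries, a mean of 8.72 CPM. General capillary endothelial-like cells of the same libraries held a mean of 390 CPM.

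The aerocyte class kept other members. Irgm2 was there at 66.7 CPM (60.3% of its highest class), Igtp at 44.6 CPM (64%) and Irf1 at 57.5% of its highest class, whereas Gbp2 (24.2 CPM, 13%) and Gbp3 (10.7 CPM, 11.9%) were low. Iigp1 in aerocyte endothelial-like cells was at 1.40% of its highest class.

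Among the regulatory GTPases, Irgm1 was at 130 CPM in venous and 121 CPM in general capillary endothelial-like cells, and at 83.1 and 82.0 CPM in arterial endothelial-like and peribronchial fibroblast and myofibroblast-like cells. Irgm2 was at 111 CPM in venous and 2.31 CPM in its lowest class, dendritic cells that carried type 2 markers but were led by Ccl22, Ccl17, Xcr1 and Siglech, genes of other dendritic cells, so that the type 2 name in the plots is not settled. Igtp was at 69.8 CPM in venous endothelial-like cells, and T-like cells held 38.2 CPM of it, between 32.9 and 42.6 CPM in the 4 libraries.

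Ifi47 differed most from Iigp1 in where it was found outside the endothelium. T-like cells held 81.6 CPM, NK-like cells 71.9 CPM and classical monocyte-like cells 67.4 CPM of Ifi47. Alveolar fibroblast-like cells held 4.81 CPM and peribronchial fibroblast and myofibroblast-like cells 5.41 CPM, so Ifi47 was low where Iigp1 was high. The correlation of the Ifi47 and Iigp1 profiles over the 19 classes was r = 0.19, against r = 0.94 for Irf1 and Irgm2. Classes share libraries and depth, and these r are descriptions over 19 points.

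Tgtp1 was the lowest member, with 12.5 CPM in venous, 8.83 CPM in lymphatic and 8.28 CPM in general capillary endothelial-like cells. AT2-like cells, the surfactant-producing alveolar epithelium, held Tgtp1 at 7.36 and 4.88 CPM with BPTES and at 10.2 and 10.3 CPM with DMSO. Its copy Tgtp2 was at a mean of 0.459 CPM in AT2-like cells and at 11.1 CPM in T-like cells, where Tgtp1 had 3.97 CPM. Reads of these copies may have been assigned to either gene.

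The guanylate-binding proteins were also found in CD45+ cells. Gbp2 was at 186 CPM in venous endothelial-like, 84.8 CPM in adventitial fibroblast-like and 43.5 CPM in neutrophil-like cells. Gbp3 was at 90.7 CPM in venous endothelial-like and at 45.1 CPM in classical monocyte-like cells, 49.7% of its highest class and rank 4 of 19. Gbp7 was at 204 CPM in venous and 202 CPM in general capillary endothelial-like cells, and NK-like cells held 96.3 CPM. AT2-like and ciliated-like cells held under 3 CPM of each of Gbp2, Gbp3 and Gbp7.

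**Figure D2:**
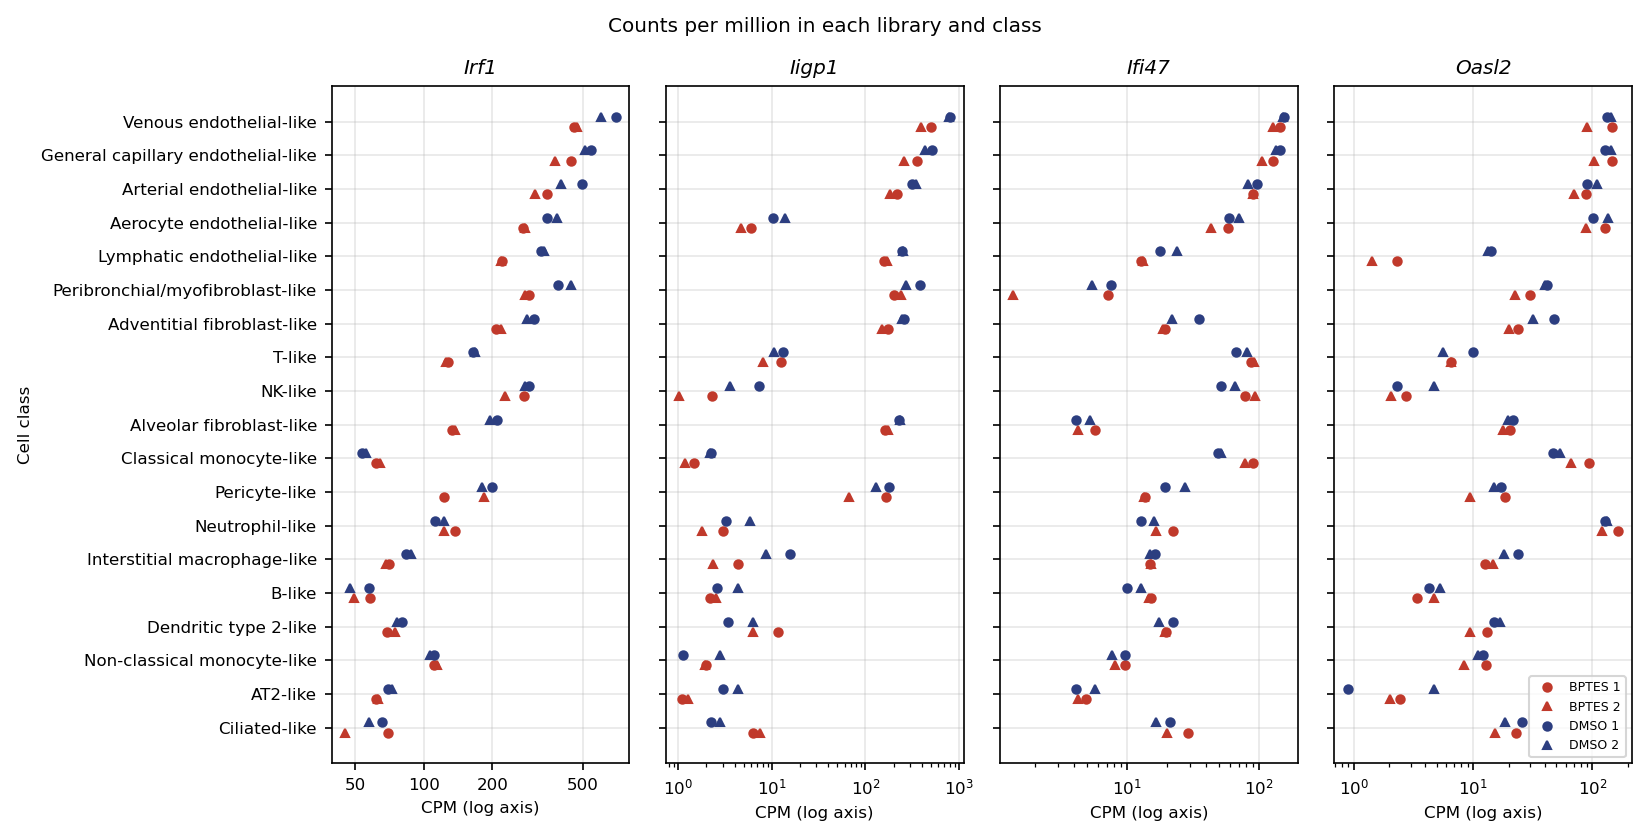
CPM on a log axis of Irf1, Iigp1, Ifi47 and Oasl2 in each of 4 libraries (BPTES red, DMSO blue, circle replicate 1, triangle replicate 2) and 19 classes, in the row order of the plot of relative levels. Iigp1 splits into classes at 67.6 CPM or more in every library and classes at 15.8 CPM or less, and Oasl2 in lymphatic endothelial-like cells is at 2.32 and 1.42 CPM with BPTES and 14.2 and 13.5 CPM with DMSO.

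Platelet-like cells, a class too small to test (67 cells, of which 66 had a UMI of the platelet gene Ppbp), held Igtp at 1147 and 818 CPM with BPTES and at 798 and 1423 CPM with DMSO. This was a mean of 1046 CPM, without TMM scaling, and lay above the mean of every tested class. The gene had a UMI in 59 of the 67 cells, 386 UMIs in all and at most 24 in a cell. Ifi47 had a UMI in 31 of these cells and a mean of 175 CPM, above its mean of 145 CPM in venous endothelial-like cells. The other 8 members had between 1 UMI (Tgtp1 and Gbp2) and 10 UMIs (Gbp7) in all, and Irgm2, which overlaps Igtp in the genome, had 2.

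The ligand and its receptor had other profiles than the members. Ifng was at 159 CPM in NK-like and 43.7 CPM in T-like cells and at no more than 1.33 CPM in the other 17 classes. Ifngr1 was highest in NK-like (1607 CPM) and T-like cells (1115 CPM), and was at 156 CPM in venous endothelial-like cells. Ifngr2 was highest in classical monocyte-like cells (155 CPM) and lowest in NK-like cells (9.57 CPM).

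Genes outside the list whose profile over the 19 classes was most like the mean of the members were sought among 12021 genes that reached 20 CPM in a class. They were Herc6 (r = 0.94), Gbp6 (r = 0.92), Armcx4 (r = 0.90), Sertad1 (r = 0.90), Lysmd2 (r = 0.90), Apol9b (r = 0.90), Rnf31 (r = 0.90), Abcg2 (r = 0.89), Jmjd6 (r = 0.88) and Rassf1 (r = 0.88). Gbp6 is a further guanylate-binding protein. For Irf1 alone, Abcg2 (r = 0.91), Gbp6 (r = 0.91) and Plscr4 (r = 0.90) came first.

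Ifit1 was close to the members in profile and Oasl2 less so. Ifit1 ranked 13 in likeness to the mean of the members (r = 0.87), with its highest levels in venous (79.1 CPM) and general capillary endothelial-like cells (66.0 CPM). Oasl2 ranked 1318 (r = 0.57), and its highest tested class was neutrophil-like cells, at 165 and 121 CPM with BPTES and at 127 and 134 CPM with DMSO. General capillary (94.7%) and venous endothelial-like cells (93.5%) held nearly as much Oasl2, with overlapping ranges. In neutrophil-like cells Ifit1 was at 24.5% of its highest class and the members were at 0.557% to 23.5%, with a median of 11.9%. Classical monocyte-like cells held Oasl2 at 47.7% of its highest class and Ifit1 at 12.9%, with the members between 0.283% for Iigp1 and 49.7% for Gbp3 (median 17.9%). Aerocyte endothelial-like cells held Oasl2 at 82.8%, Ifit1 at 42.0% and the members at a median of 37.0%. In adventitial fibroblast-like cells Ifit1 (20.2%), Oasl2 (22.6%) and the members (median 28.3%) lay near each other. In lymphatic endothelial-like cells Oasl2 was at 5.74% of its highest class, Ifit1 at 24.9% and the members at a median of 33.1%. NK-like cells held Ifit1 and Oasl2 at 1.91% and 2.17% and the members at a median of 19.2%. The median r over the 45 pairs of members was 0.69, that of the members with Ifit1 0.76 and that with Oasl2 0.47, while Ifit1 and Oasl2 had r = 0.86.

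Whether the 2 sets met in the same cells was asked in general capillary endothelial-like cells, each thinned to 3000 UMIs. An Ifit1 UMI was then found in 13.4% and 8.94% of these cells with BPTES and in 12.1% and 14.5% with DMSO. Unthinned levels of Ifit1 were 73.2, 42.6, 64.9 and 83.3 CPM in these libraries, and classical monocyte-like cells had an Ifit1 UMI in 0.630% to 3.48% of thinned cells. Cells with an Ifit1 UMI held more of the members than cells without, with a median ratio of 2.22 over the 10 genes. Igtp had a ratio between 2.38 and 3.49 over the 4 libraries, Iigp1 between 2.11 and 2.50, Irgm1 between 2.03 and 2.30, Gbp7 between 2.08 and 2.29 and Gbp2 between 1.63 and 1.83. Irf1 had the lowest median over the libraries (1.48, between 1.07 and 1.55), with Irgm2 below it in DMSO replicate 1. Tgtp1 was below 1 in 1 library (0.826), on 52 UMIs in the Ifit1-positive cells of all libraries. Oasl2, the other type I gene, had ratios of 2.89 to 3.80. In venous endothelial-like cells the median ratio was 2.28, and Irf1 again had the lowest median (1.43, between 1.12 and 1.44). These are ratios within a library and carry no test.

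**Figure D3:**
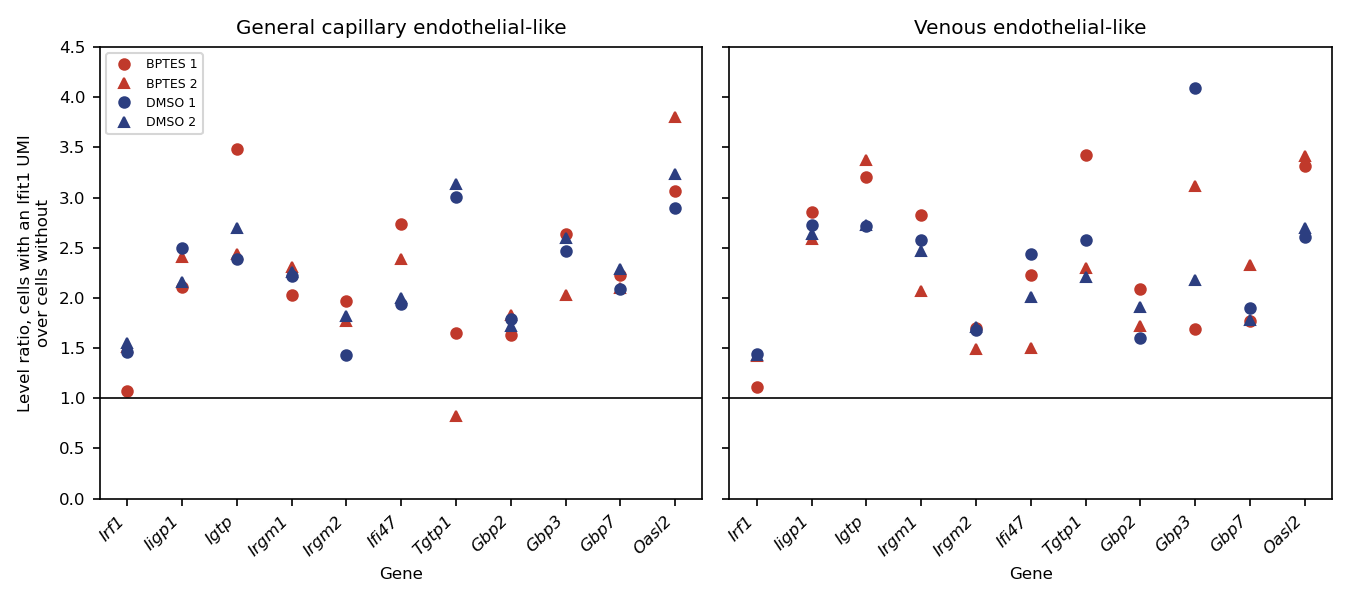
Ratio of the level in cells with an Ifit1 UMI to that in cells without (linear axis, line at 1), for 10 members and Oasl2 in general capillary and venous endothelial-like cells thinned to 3000 UMIs, a point per library (BPTES red, DMSO blue, circle replicate 1, triangle replicate 2). All points but Tgtp1 in BPTES replicate 2 of the capillary class lie above 1, and Irf1 has the lowest median in both classes.

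The effect of BPTES was tested in each class with edgeR's quasi-likelihood test, adjusted over all genes of the class after Benjamini and Hochberg and called at an adjusted p under 0.05. Of 190 pairs of a member and a class, 172 passed the filter on low counts, with Tgtp1 in 6 of the 19 classes and each other member in 17 or more. Calls were made for 2 of the 172, against 0.097% of all gene and class pairs. Both were in lymphatic endothelial-like cells, where 0.461% of all genes were called and 0.359% were called lower. Over the 172 pairs, both BPTES libraries were below both DMSO libraries in 78 and above both in 26, against 22.4% and 22.0% of all gene and class pairs.

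With BPTES there were 436 and 287 lymphatic endothelial-like cells per library, with DMSO 342 and 343. Irf1 was there at 221 and 218 CPM with BPTES and at 329 and 337 CPM with DMSO. The groups did not overlap, and Irf1 fell by 0.60 on the log2 scale (SE 0.095, edgeR adjusted p = 0.017). Iigp1 in lymphatic endothelial-like cells was at 160 and 172 CPM with BPTES and at 248 and 250 CPM with DMSO, again without overlap. Iigp1 fell by 0.59 (SE 0.098, edgeR adjusted p = 0.021). The other 8 members also had negative log2 fold changes there, from -0.28 for Gbp7 to -0.68 for Ifi47, and none of them was called. Both BPTES libraries were below both DMSO libraries for 9 of the 10 members, against 21.6% of all genes tested in the class. The median over the members was -0.50 and that over all genes 0.00405. The Irf1 and Iigp1 calls were lost without DMSO replicate 1 (edgeR adjusted p = 0.0505 for Irf1 and 0.0657 for Iigp1) and with doublets kept (edgeR adjusted p = 0.0637 and 0.0978).

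The type I genes were also lower in the same cells. Oasl2 in lymphatic endothelial-like cells was at 2.32 and 1.42 CPM with BPTES and 14.2 and 13.5 CPM with DMSO, and fell by 2.82 on the log2 scale (SE 0.37, edgeR adjusted p = 0.012). Ifit1 was at 9.84 and 6.23 CPM with BPTES and 43.0 and 19.8 CPM with DMSO, and fell by 1.93 (SE 0.34, edgeR adjusted p = 0.026). The BPTES values of both genes are low and the level of free RNA was not measured, so the sizes of these changes are uncertain. Of 19 type I genes tested there, 8 were called, all lower, and the median was -1.14. These were Isg15, Oasl2, Irf7, Ifi27l2a, Rtp4, Ifit1, Ifit2 and Ifit3. Without DMSO replicate 1 the calls of Isg15, Irf7, Rtp4 and Ifit1 were lost, with doublets kept those of Isg15, Irf7 and Ifit1, and with DESeq2 those of Irf7 and Rtp4. With upper-quartile scaling 7 of the 8 were still called. Whether members and type I genes differed in their response was not tested. Among 13 other immunity GTPases tested there, 12 had negative values and Gm4951 was called (fell by 1.04, edgeR adjusted p = 0.014). Of 12 interferon-gamma targets outside the GTPases, 10 had negative values and the chemokine gene Cxcl10 was called (fell by 2.79, edgeR adjusted p = 0.034). None of the 12 signalling genes was called in this class.

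Outside the lymphatic class, few genes of the pathway lists were called. In aerocyte endothelial-like cells, where 0.207% of all genes were called, Cxcl10 fell by 2.71 and Gm4951, an immunity-related GTPase gene, fell by 1.73 (edgeR adjusted p = 0.040 and 0.048). In AT2-like cells (0.199% of all genes) Gm12185, which overlaps Tgtp1, fell by 1.43 and Socs3, a feedback inhibitor of cytokine signalling, fell by 0.97 (edgeR adjusted p = 0.048 and 0.027). The aerocyte calls were lost with doublets kept, with upper-quartile scaling and without BPTES replicate 2, DMSO replicate 1 or DMSO replicate 2. Both AT2 calls were lost with doublets kept, and that of Gm12185 also without BPTES replicate 1, BPTES replicate 2 or DMSO replicate 1. In lymphatic endothelial-like cells the Cxcl10 and Gm4951 calls were lost with doublets kept, and that of Cxcl10 also with DESeq2 and upper-quartile scaling. Tgtp1 in AT2-like cells had a log2 fold change of -0.75 with no overlap between groups (edgeR adjusted p = 0.21).

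**Figure D4:**
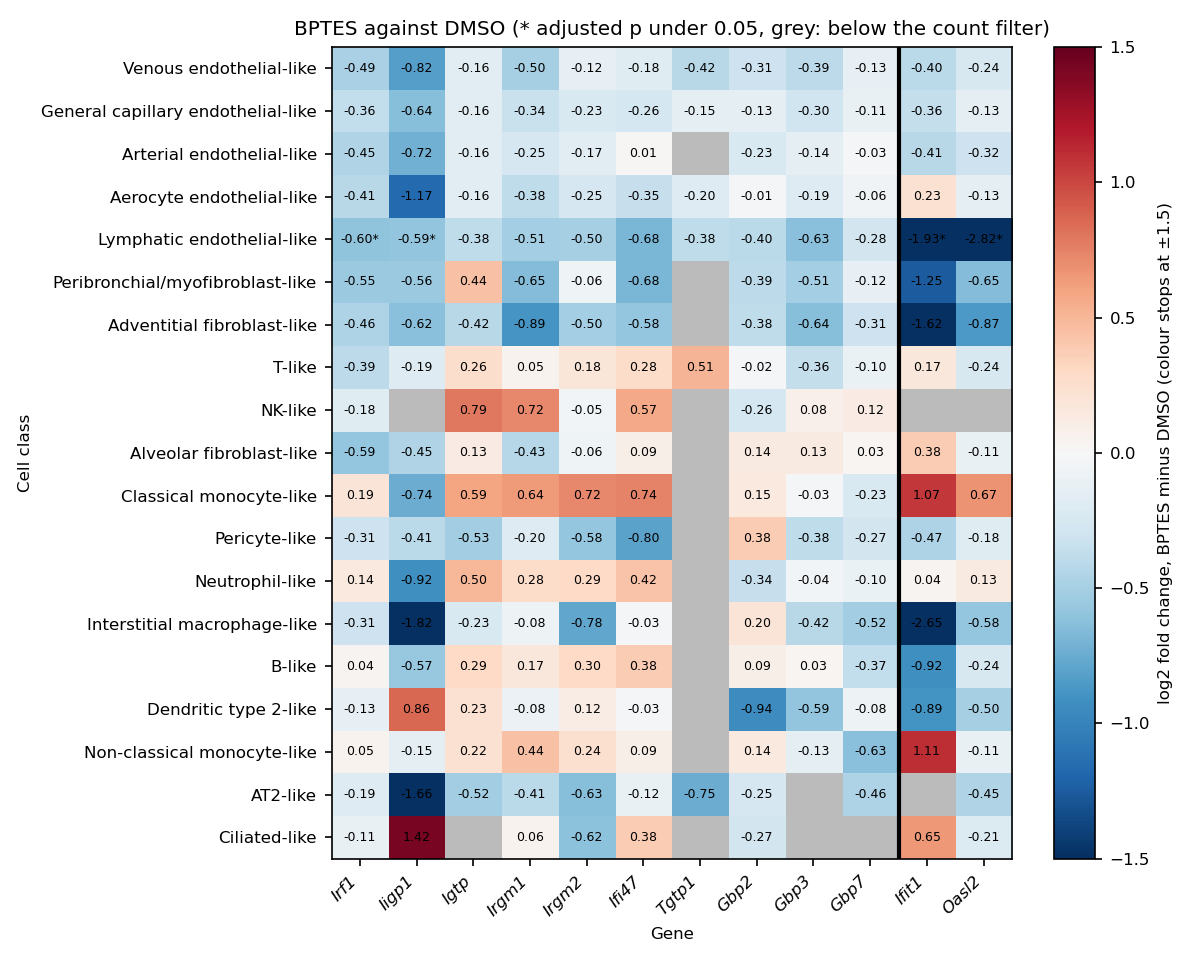
Log2 fold change of BPTES over DMSO (colour and printed number, red higher and blue lower with BPTES) for 10 members and the type I genes Ifit1 and Oasl2 in 19 classes; a star marks an edgeR adjusted p under 0.05 and grey a gene below the count filter. Stars stand only in the lymphatic endothelial-like row, and the Irf1 and Iigp1 columns are negative in all 9 endothelial and mesenchymal classes.

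Across the 9 endothelial and mesenchymal classes, Irf1, Iigp1, Irgm1 and Irgm2 had negative log2 fold changes in 9 of 9, Gbp3 and Gbp7 in 8, Igtp, Ifi47 and Gbp2 in 7, and Tgtp1 in the 4 where it was tested. With a library left out, Iigp1 and Irgm1 turned positive in pericyte-like cells and Irgm2 in arterial endothelial-like and peribronchial fibroblast and myofibroblast-like cells. Irf1 ranged from -0.60 to -0.31, and both BPTES libraries were below both DMSO libraries in 8 of the 9, against 23.6% of all gene and class pairs of these classes. Iigp1 ranged from -1.17 in aerocyte endothelial-like cells, at a mean of 8.72 CPM, to -0.41 in pericyte-like cells and did not overlap in 8 of 9. Irgm1 ranged from -0.89 to -0.20 and did not overlap in 7 of 9. Gbp7 had both BPTES libraries below both DMSO libraries in 3 of 9, and Igtp, Gbp3 and Gbp2 had both above in 1, 1 and 2 classes. Over all gene and class pairs of the 19 classes, both were above in 22.0%. These small counts lie near the shares over all genes and were not read as a result about these members. The classes come from the same 4 libraries and are not independent. In venous endothelial-like cells, where levels were highest, 9 of 10 members had both BPTES libraries below both DMSO libraries (22.8% of all genes), and the log2 fold change was -0.49 for Irf1 and -0.82 for Iigp1 (edgeR adjusted p = 0.17 and 0.12). In general capillary endothelial-like cells 7 of 10 members had both BPTES libraries below both DMSO libraries (28.4% of all genes), and the log2 fold change was -0.36 for Irf1 and -0.64 for Iigp1 (edgeR adjusted p = 0.13 and 0.12). No gene at all was called in these 2 classes in the main fit, where 1563 and 3166 genes had an unadjusted p under 0.05. This depended on the method, since 70 and 566 genes were called there with DESeq2 and 500 and 1065 with a replicate block.

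Adventitial fibroblast-like cells had all 9 tested members without overlap and lower with BPTES, against 26.6% of all genes. The class joined 2 clusters whose cells were mixed differently in the groups, with 165 and 331 cells of the smaller cluster in the BPTES and 443 and 310 in the DMSO libraries. The larger cluster, of 2812 cells, was led by Adh7, Col28a1 and Sv2c, and no adventitial marker was among its leading genes. Its name is therefore not settled. Within the larger cluster Igtp overlapped between groups, and within the smaller Irf1 and Gbp2 did. Irgm1 in the class was at 26.1 and 36.4 CPM with BPTES and at 64.5 and 51.7 CPM with DMSO, a log2 fold change of -0.89 (SE 0.18, edgeR adjusted p = 0.16). In alveolar fibroblast-like cells the 9 tested members had both signs. The 3 of them with both BPTES libraries above both DMSO libraries were near the share over all genes. Irf1 (-0.59), Iigp1 (-0.45), Irgm1 (-0.43) and Irgm2 (-0.06) had both BPTES libraries below both DMSO libraries, while Igtp (0.13), Gbp2 (0.14) and Gbp3 (0.13) had both above (26.8% of all genes in either direction), and none was called (edgeR adjusted p from 0.058 for Irf1 upward).

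In general capillary endothelial-like cells without an Ifit1 UMI, thinned to 3000 UMIs, Irf1 was at 438 and 342 CPM with BPTES and 514 and 477 CPM with DMSO. Iigp1 in these cells was at 299 and 218 CPM with BPTES and 424 and 378 CPM with DMSO. The log2 ratio of the group means was -0.35 for Irf1 and -0.63 for Iigp1. These cells were most of the class, so the values could not lie far from those of the whole class.

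In CD45+ classes part of the family had positive values, many of them at low levels. Igtp had a positive log2 fold change in 7 of 8 CD45+ classes, Irgm1 and Ifi47 in 6 of 8, and both BPTES libraries were above both DMSO libraries in 5, 4 and 5 of the 8 (21.1% of all gene and class pairs of these classes). Gbp7 was negative in 7 of 8, Gbp3 in 6 of 8 and Iigp1 in 6 of the 7 where it was tested. Irf1 and Gbp2 were negative in 4 of 8, and Irf1 ranged from -0.39 to 0.19. For Irf1 both BPTES libraries were below both DMSO libraries in 4 of the 8 and above both in 2. The shares over all gene and class pairs of the 19 classes were 22.4% and 22.0%. Irgm2 was negative in 2 of 8, at means of 8.65 CPM or less outside T-like and NK-like cells. In interstitial macrophage-like cells 8 of 9 members were negative, with a median of -0.31. Means were low for Igtp in 5 of these classes (7.42 to 9.86 CPM), for Irgm1 (8.33 CPM) and Ifi47 (8.74 CPM) in non-classical monocyte-like cells and for Iigp1 in all 8 (1.76 to 11.1 CPM), and values at these levels were not read as a response of those cells. In NK-like cells Igtp was at 21.9 and 21.5 CPM with BPTES and 14 and 11 CPM with DMSO, a log2 fold change of 0.79 (edgeR adjusted p = 0.49). Ifng itself had a log2 fold change of -0.05 in NK-like and -0.32 in T-like cells (edgeR adjusted p = 0.95 and 0.53). The T-like class joined clusters that were mixed differently in the libraries. That led by Klrc1, Sidt1 and Ifngas1 gave 203 of 1002 and 252 of 1208 T-like cells with BPTES. With DMSO it gave 221 of 871 and 450 of 1291, so T-like changes cannot be told apart from this mix.

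Classical monocyte-like cells had the highest log2 fold change of the 19 classes for Ifi47. Ifi47 was at 90.8 and 77.9 CPM with BPTES and at 49.2 and 51.6 CPM with DMSO, and Irgm1 at 41.3 and 31.3 CPM with BPTES and 21.8 and 24.4 CPM with DMSO. Neither overlapped, and the log2 fold changes were 0.74 (SE 0.096, edgeR adjusted p = 0.060) and 0.64 (SE 0.14, edgeR adjusted p = 0.12). Igtp had 0.59 and Irgm2, at a mean of only 5.69 CPM, 0.72 (edgeR adjusted p = 0.093 and 0.20). Both BPTES libraries were above both DMSO libraries for 5 of 9 members, against 24.2% of all genes. Negative values were found for 3 of the 9, and 2 had both BPTES libraries below both DMSO libraries. These 2 were Gbp7 and Iigp1, the latter at 1.76 CPM, where the share over all gene and class pairs was 22.4%. No member was called, and 0.0246% of all genes were. Oasl2 had a log2 fold change of 0.67 and Ifit1 of 1.07 in these cells (edgeR adjusted p = 0.13 and 0.15). Outside this class, both BPTES libraries were above both DMSO libraries for 5 of 10 members in T-like and 4 of 9 in non-classical monocyte-like cells. The share over all genes of the 8 CD45+ classes was 21.1%.

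The difference in response between classical monocyte-like cells and 3 other classes was then tested, with the library as a block. These 3 pairs of classes were chosen with earlier results of these data known, so the calls are not an independent test. Of 29 tests of a member, 9 were called, all with the monocyte value above the other class, where 1.04%, 1.13% and 1.01% of all genes were called against alveolar fibroblast-like, lymphatic and general capillary endothelial-like cells. Irgm1 differed in all 3, by 1.07 (SE 0.17, edgeR adjusted p = 0.012) from alveolar fibroblast-like, by 1.14 (SE 0.16, edgeR adjusted p = 0.00095) from lymphatic and by 0.97 (SE 0.11, edgeR adjusted p = 0.015) from general capillary endothelial-like cells. Irf1 differed by 0.78 from alveolar fibroblast-like and by 0.77 from lymphatic endothelial-like cells (edgeR adjusted p = 0.012 and 0.0053), and by 0.55 from general capillary endothelial-like cells, which was not called (edgeR adjusted p = 0.087). Ifi47 differed by 1.41 from lymphatic and 0.99 from general capillary endothelial-like cells, and Irgm2 by 1.20 and 0.95 (edgeR adjusted p from 0.0016 to 0.042). The 2 Irgm2 calls rest on 5.69 CPM in the monocyte class, a level not told apart from free RNA, and were not read as a response. Of the 9 calls, 3 were lost without BPTES replicate 1 (Irgm1 against alveolar fibroblast-like cells, Ifi47 and Irgm2 against lymphatic endothelial-like cells). Without BPTES replicate 2 the calls of Irf1 against alveolar fibroblast-like and Irgm2 against general capillary endothelial-like cells were lost. Both Irgm2 calls were lost without DMSO replicate 2, and that against general capillary endothelial-like cells also without DMSO replicate 1.

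No difference was called for Iigp1, Gbp2, Gbp3 or Gbp7 in any of the 3 tests, nor for Tgtp1 in the 2 it entered. For Iigp1 the tests say nothing of a response, since the monocyte class held 1.76 CPM of it. Igtp differed by 0.48 to 0.95 and was not called (edgeR adjusted p = 0.18, 0.069 and 0.065). Oasl2 was called in all 3 tests (0.78, 3.52 and 0.80) and Ifit1 in 2 (2.97 from lymphatic and 1.43 from general capillary endothelial-like cells).

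**Figure D5:**
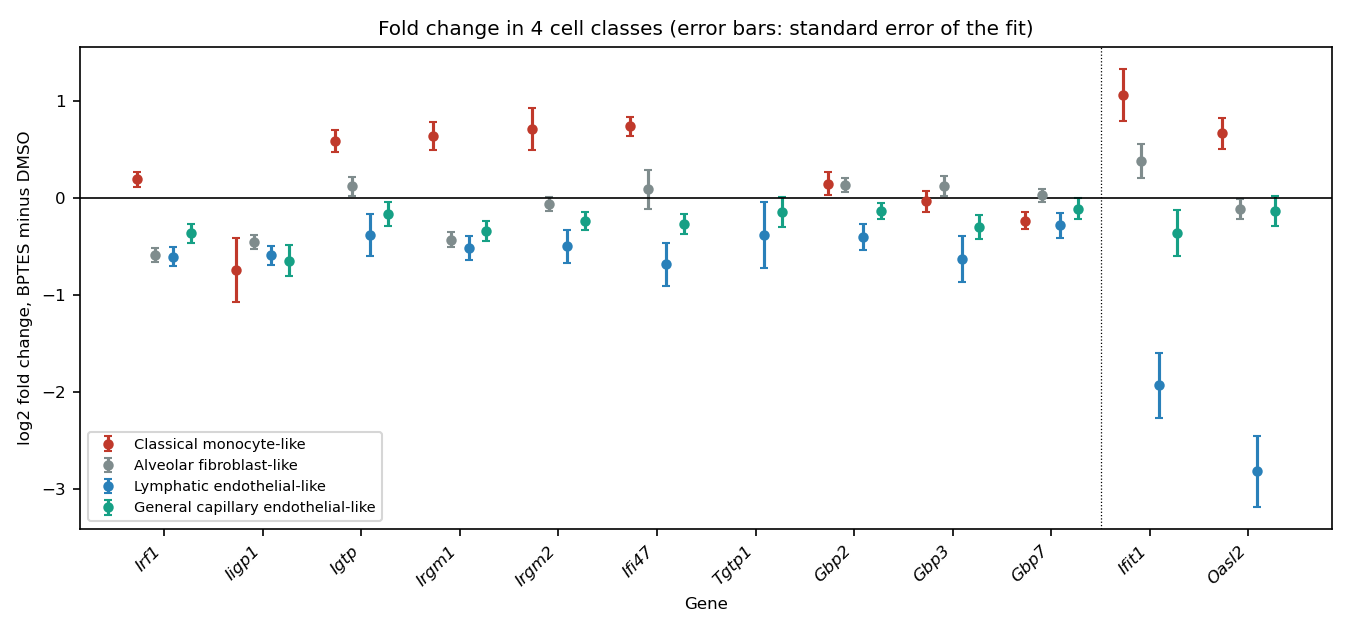
Log2 fold change of BPTES over DMSO with its standard error for 10 members and the type I genes in classical monocyte-like (red), alveolar fibroblast-like (grey), lymphatic (blue) and general capillary endothelial-like cells (green). The monocyte points of Igtp, Irgm1, Irgm2 and Ifi47 lie between 0.59 and 0.74, above the other 3 classes, and the monocyte point of Iigp1 rests on a level of 1.76 CPM.

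Immediate early genes (Fos, Jun, Egr1, Atf3, Ier2 and Junb), which respond to stress and tissue digestion within minutes, moved with part of this pattern but not in every class. All 6 were negative in aerocyte endothelial-like (median -0.39), interstitial macrophage-like (-0.35) and arterial endothelial-like cells (-0.32). The member medians there were -0.22, -0.31 and -0.17. All 6 were also negative in peribronchial fibroblast and myofibroblast-like (-0.19) and ciliated-like cells (-0.18), with member medians of -0.51 and -0.027. In pericyte-like cells 5 of the 6 were positive (median 0.034), with summed levels that overlapped between groups, while the members had a median of -0.38. In NK-like cells 4 of the 6 were negative (median -0.23), while the members had a median of 0.10. In classical monocyte-like cells all 6 had positive log2 fold changes (median 0.46), and their summed level was 4802 and 4079 CPM with BPTES against 2799 and 3314 CPM with DMSO. In venous endothelial-like cells all 6 were negative (median -0.38), with 9008 and 7854 CPM against 11596 and 10112 CPM, and in general capillary endothelial-like cells all 6 were negative with a median of -0.26. In lymphatic endothelial-like cells all 6 were negative, with a median of -0.10, and the summed level overlapped between groups, at 13697 and 11423 CPM with BPTES and 12947 and 14634 CPM with DMSO. Of all 19 classes, only Junb in aerocyte endothelial-like cells was called among these genes, a call lost with doublets kept, with upper-quartile scaling and without BPTES replicate 2, DMSO replicate 1 or DMSO replicate 2. Atf3, Jun and Fos were also called in each of the 3 tests between classes, with differences from 0.69 to 1.28. Their part in the results on the members was not tested.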

How the data were processed

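The authors deposited raw counts of UMIs per gene and barcode, 1 matrix per library, from Cell Ranger 8.0.1 with mm10, per the file headers and the submitters' processing notes. The kit was Chromium GEM-X Single Cell 3', per the labels' protocols, and other settings are not given in the sources used here. Barcodes with at least 500 genes, 1000 UMIs and at most 10% mitochondrial UMIs were kept, which left medians of 13915.5 to 15749 UMIs. Doublets were scored against simulated ones, and the top 0.4% per 1000 barcodes were removed. Cells were clustered on 2000 variable genes (40 components, 15 neighbours, Leiden in igraph 0.11.9, resolution 1) and named from markers (mean z-score of at least 1.5, 3 detected). The class plotted as conventional dendritic type 2-like was led by genes of other dendritic cells (Ccl22, Ccl17, Xcr1, Siglech). The larger cluster of the adventitial fibroblast-like class had no adventitial marker among its leading genes. edgeR 4.0.16 (R 4.3.3), with filterByExpr and TMM, compared the summed counts. The test was first checked on simulated counts. The pathway lists, the 10 members and the tests were chosen with earlier results of these data known. The immediate early list was added after the data were seen. Named genes are the members, Ifit1, Oasl2, called genes of the lists, up to 3 genes per list with a described level, and the 10 genes (3 for Irf1) most alike in profile. Positions are from GENCODE M21 (GRCm38). Alternatives were DESeq2 1.42.0, no filter, upper-quartile scaling, a replicate block, each library left out, doublets kept, other resolutions, and clustering without the listed genes.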

Additional observations from a re-analysis of the deposited data

Results flagged for a closer look

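A difference in response to BPTES between 2 cell classes, tested in 1 fit with the library as a block, flagged 14 results. The pairs of classes were chosen with earlier results of these data known. Over all genes, 1.04%, 1.13% and 1.01% were called against alveolar fibroblast-like, lymphatic and general capillary endothelial-like cells. Against alveolar fibroblast-like cells, the log2 fold change of classical monocyte-like cells was higher by 1.07 for Irgm1, 0.78 for Irf1 and 0.78 for Oasl2. Against lymphatic endothelial-like cells, it was higher by 1.14 for Irgm1, 1.41 for Ifi47, 0.77 for Irf1, 1.20 for Irgm2, 3.52 for Oasl2 and 2.97 for Ifit1. Against general capillary endothelial-like cells, it was higher by 0.97 for Irgm1, 0.99 for Ifi47, 0.95 for Irgm2, 0.80 for Oasl2 and 1.43 for Ifit1. The edgeR adjusted p of these differences lay between 1.819e-06 and 0.042. The Irgm2 differences rest on 5.69 CPM in the monocyte class and were not read as a response. Those of Oasl2 and Ifit1 from lymphatic endothelial-like cells rest on low BPTES values there, so their sizes are uncertain. Some of the member calls were lost with a library left out. With 2 libraries a group, single libraries were not tested as outliers.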

How the results depend on the processing

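Calls of members, 2 of 172 pairs, numbered 18 with DESeq2, 33 without the filter on low counts, 4 at resolution 2, 1 with doublets kept and 3 to 22 with a library left out (22 without BPTES replicate 1, 14 without DMSO replicate 2, 6 without BPTES replicate 2). Upper-quartile scaling and resolution 0.5 gave 2 and clustering without the listed genes 3. The 2 main calls were both lower, whereas 2 of the calls with DESeq2, 6 without the filter and the 1 with doublets kept were higher. Some calls with a library left out were higher too. Over all gene and class pairs the share called was 0.097%, and became 1.31% with DESeq2, 2.69% without the filter, 0.089% at resolution 2, 0.0481% with doublets kept and 0.384% to 1.76% with a library left out. The lymphatic Irf1 and Iigp1 calls were among those of every alternative except doublets kept and without DMSO replicate 1. Type I calls, 8 of 378, numbered 23 with DESeq2, 78 without the filter, 5 with doublets kept and 9 to 40 with a library left out. Of the 8 type I calls, 4 recurred without DMSO replicate 1, 5 with doublets kept and 6 with DESeq2. With upper-quartile scaling 7 of the 8 recurred. The 8 main type I calls were all lower, whereas 7 of the 23 with DESeq2 and 18 of the 78 without the filter were higher. Without BPTES replicate 2 the type I calls also had both directions. The cause of these moves was not tested. Replicate numbers were not used to pair the libraries in the main fit. Deviations of libraries with the same number had a median r of -0.028 over classes, from -0.130 in NK-like to 0.115 in aerocyte endothelial-like cells. With 2 libraries a group, this r cannot show whether the numbers pair the libraries. With the number as a replicate block, 15 member and 25 type I pairs were called, beside 1.27% of all pairs.

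Differences between classes, 9 of 29, numbered 14 without the filter, 8 with clustering without the listed genes and 7 to 10 with a library left out, and of the 9 calls 6 recurred without BPTES replicate 1, 7 without BPTES replicate 2, 8 without DMSO replicate 1 and 7 without DMSO replicate 2. Over all genes the share called was 1.06%, 3.45% without the filter, 0.632% with clustering without the listed genes and 0.745% to 2.52% with a library left out. The ratio of members in Ifit1-positive over Ifit1-negative cells, 2.22, became 2.11 at 5000 UMIs, 1.81 with Oasl2 as the splitting gene and 2.12 with clustering without the listed genes. Without a library, uncalled log2 fold changes changed sign: lymphatic Tgtp1 lay between -0.86 and 0.057, monocyte Gbp2 between -0.020 and 0.30 and Gbp3 between -0.15 and 0.092, general capillary Igtp between -0.34 and 0.0014, Tgtp1 between -0.32 and 0.0044 and Gbp7 between -0.26 and 0.031, venous Gbp7 between -0.31 and 0.045 and pericyte Iigp1 between -1.18 and 0.11. Over all 172 pairs the sign changed for 16 to 23 with a library left out, 21 with doublets kept, 6 at resolution 2, 4 with clustering without the listed genes, 2 with upper-quartile scaling, 2 without the filter, 6 of 154 at resolution 0.5 and none with DESeq2 or the block. Levels in general capillary and classical monocyte-like cells moved by more than 1 SD in 1 of 40 comparisons. Joining the unnamed clusters that scored highest for general capillary markers with that class, chosen after seeing the data, gave no member call (edgeR adjusted p = 0.127 for Irf1 and for Iigp1, and 3632 of 16105 genes at an unadjusted p under 0.05). Small classes and values near 1 CPM are limited by counts.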

Other observations

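The largest unnamed cluster, of 6200 cells, scored highest for general capillary markers but was led by Ntrk2, Gja4, Cxcl12 and Sox17, and so had no name. Its members stood near those of the general capillary class, with Irf1 at 419 CPM, Iigp1 at 284 CPM, Gbp7 at 178 CPM and Irgm1 at 103 CPM. Another unnamed cluster, of 1835 cells with a median UMI count at 0.182 of their library's, held Gbp2 at 165 CPM and Gbp3 at 83.3 CPM beside Irf1 at 152 CPM.

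With BPTES there were 7 and 22 mesothelial-like cells per library and with DMSO 226 and 72, too few to test. Gbp2 was there at 208 and 200 CPM with DMSO and at 129 and 82.8 CPM with BPTES, the latter on 7 and 22 cells. In the DMSO libraries Oasl2 was at 208 and 272 CPM in these cells, and no comparison with BPTES is made for it.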
